A study of Mus musculus with 7 samples.

Results

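The myogenic and satellite cell transcription factors are the paired-box factors Pax7 and Pax3, the myogenic regulatory factors Myf5, Myod1, Myog and Myf6, and the MEF2 factors Mef2a, Mef2c and Mef2d. These 9 genes were looked up by symbol, older symbols included, in a peak table from injured muscle and a peak list from C2C12 cells. Of the 9 genes, 6 had a peak listed in muscle, 2 had one in C2C12, and 3 were in neither. They held 8 of the 5412 muscle peaks and 2 of the 5433 C2C12 peaks.

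The peaks come from m6A MeRIP-Seq, in which RNA fragments bound by an antibody against N6-methyladenosine (m6A) are sequenced beside the input RNA. METTL3 is the enzyme subunit that writes the mark. METTL3 cKO mice carried Pax7CreERT2 and METTL3 flox/flox, and CTL mice carried the same Cre with METTL3 wt/wt, all on C57BL/6. Both groups received tamoxifen and then CTX, a toxin that kills myofibres, in the tibialis anterior (TA), and were sampled at day 2. Each genotype gave 1 IP and 1 input library. The Cre acts in Pax7-expressing cells, whereas the labels give muscle as the source of the RNA and muscle stem cell as the cell type. C2C12 is a mouse myoblast line and gave 2 IP libraries and 1 input library. The labels call both C2C12 IP libraries knockouts, while the methods name no knockdown there. The paper's results describe a METTL3 knockdown in C2C12 cells, but do not say that these libraries came from such cells. Whether the sequenced C2C12 cells had been differentiated is not clear, since the study's text calls them myoblasts and the labels describe differentiation medium. Each table gives 1 set of values per peak and none per library, so no value below has a replicate error, no test was made, and the depth is unknown.

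Pax7 marks satellite cells, the stem cells of muscle, and Pax3 is its close relative in the embryonic muscle lineage. Myf5 and MyoD (Myod1) commit cells to the myogenic fate, and myogenin (Myog) and Myf6 act later, during differentiation. These basic helix-loop-helix factors bind the E-box as dimers with E proteins, and MEF2 factors bind beside them at many muscle genes.

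Of these genes, 6 were listed in muscle and 2 in C2C12, but only 2 of the 6 had a muscle peak whose enrichment of IP over input reached the median of all muscle peaks. The 6 of 9 genes in muscle, 66.7%, stand beside 16.9% of 21900 protein-coding RefSeq genes. The 2 of 9 in C2C12, 22.2%, stand beside 17.6%, and the share in C2C12 is therefore near that of all genes. Pax7 and Myod1, 2 of the 9, were in both lists, where 7.32% of all protein-coding genes were. The background includes genes that are not transcribed in muscle, so these shares are not adjusted for expression. The muscle table holds only peaks that the authors called different between the genotypes. A gene without a listed peak may therefore carry m6A that did not differ, carry none, or not be expressed, and these cannot be told apart.

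Peaks of the listed factors lay mostly near the 3′ end of the gene. By the authors' annotation, 6 of the 8 muscle peaks (75%) were in the 3′UTR, against 48.0% of all muscle peaks. The other 2 were the Myog peak, in the coding sequence (CDS), and 1 of the Mef2a peaks, in the 5′UTR. CDS made up 31.9% of all muscle peaks and 5′UTR 5.14%. In C2C12, Pax7 had its peak in the 3′UTR and Myod1 in the 5′UTR, regions that held 25.9% and 6.29% of all C2C12 peaks. Positions along a gene are given here on the unspliced span of the RefSeq gene, introns included. For C2C12 they are the distance from the authors' transcript start over the length of that span.

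**Figure D1:**
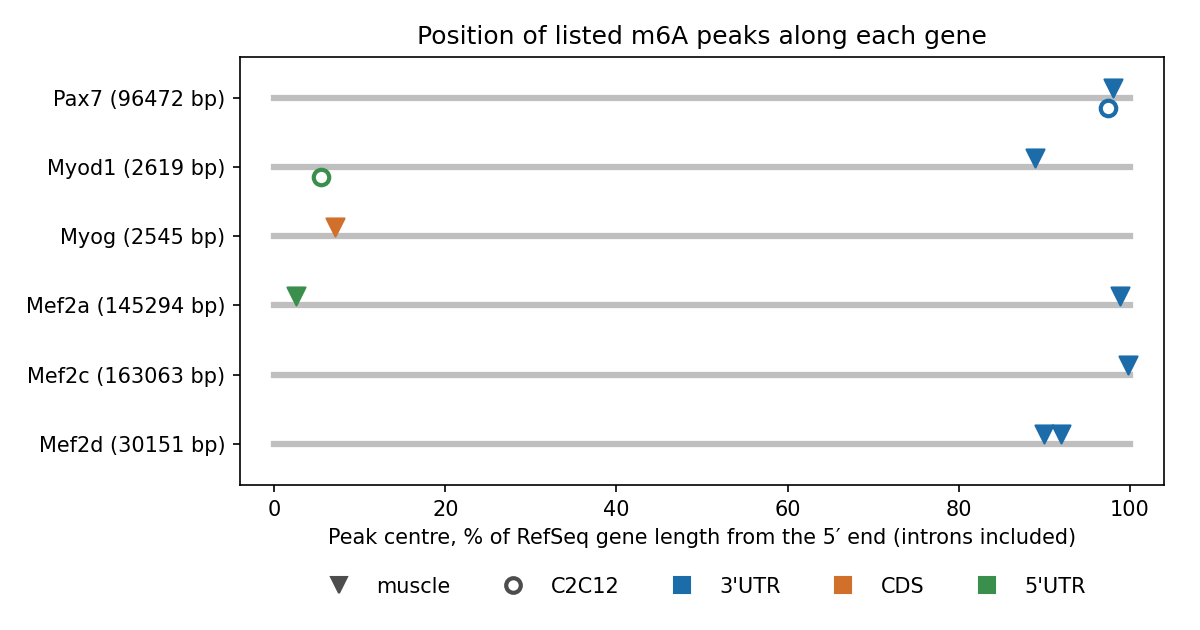
Position of every listed m6A peak of the 6 listed factors, as the peak centre in percent of the RefSeq gene length from the 5′ end (x axis), with 1 gene per line and its length in bp. Triangles are muscle peaks, circles are C2C12 peaks, and colours give the annotated region. C2C12 centres are counted from the transcript start of the authors' annotation. The Pax7 peaks of both lists lie at 98.0% and 97.5%, whereas those of Myod1 lie at 88.9% in muscle and 5.50% in C2C12.

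Pax7 had the highest fold enrichment of the set, although 6.3e-14 was the largest p-value among the strongest peaks of the 6 genes. Its muscle peak lay in the 3′UTR on the minus strand, at chr4:139738766-139739244 (GRCm38), and was 479 bp long. The fold enrichment, which is the ratio of IP over input that the authors give for a peak, was 39. That fold enrichment was higher than those of 71.2% of all muscle peaks and 79.4% of 3′UTR peaks, and placed Pax7 at rank 1375 of 3803 genes by their strongest peak. The peak centre was 1946 bp from the 3′ end of the gene, where the median over 2570 3′UTR peaks was 1194 bp. The authors' table lists 3 GGAC sites in it, at 139738898, 139739131 and 139739155. GGAC is a common form of the sequence that METTL3 methylates.

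In C2C12, Pax7 again had 1 peak, also in the 3′UTR. It was 752 bp long, longer than 95.9% of C2C12 peaks, whose median was 286 bp. The list gives no enrichment values, so length and number of peaks are the only sizes available there. Its centre was 94015 bp from the transcript start by the authors' annotation. Counted from the 5′ end of the RefSeq gene, the muscle peak ran from 94286 to 94764 bp. The C2C12 peak, always counted from the authors' transcript start, ran from 93639.5 to 94390.5 bp. With the 2 starts taken as the same point, 104.5 bp were shared. With the muscle peak counted instead from the transcript start of the RefSeq promoter table, which lies inside the gene span, it ran from 93724 to 94202 bp. It then lay wholly within the C2C12 peak. The Pax7 peaks overlapped under both ways of counting, while the amount shared depended on which start was used. Of 1584 genes in both lists with positions, 54.7% had overlapping peaks and 61.4% had a peak in the same region, so an overlap such as that of Pax7, 1 of the 2 factors in both lists, was usual for these lists. Pax3 was in neither list.

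Myod1 was in both lists with peaks at opposite ends of the gene. In muscle, the peak lay in the 3′UTR at chr7:46378656-46378951 on the plus strand and was 296 bp long. Its fold enrichment was 13.5 with a p-value of 2.0e-16, close to the median of 12.9 over all muscle peaks, and 50.9% of peaks were lower. Of 3′UTR peaks, 57.9% were lower. A single GGAC site was listed, at 46378894, and the peak centre was 288.5 bp from the 3′ end of this 2619 bp gene. In C2C12, the Myod1 peak was annotated to the 5′UTR, was 375 bp long and had its centre 144 bp from the transcript start. It was longer than 71.1% of C2C12 peaks, and 5′UTR peaks there had a median of 240 bp. Peak centres within 144 bp of a transcript start made up 4.10% of the C2C12 list.

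The Myod1 peaks did not overlap. From the 5′ end of the RefSeq gene, the muscle peak ran from 2182 to 2477 bp. From the authors' transcript start, the C2C12 peak ran from -43 to 331 bp. With the 2 starts taken as the same point, this leaves 1851 bp between the peaks. Like Pax7, Myod1 had 1 peak in each list. Of the 775 genes with 1 peak in each list, 50.5% had peaks that overlapped and 53.5% had them in the same region, and the median gap of those apart was 4774 bp. Both overlapping and separate peaks were thus common among these genes. The gaps include introns, and Myod1, at 2619 bp, could not hold a gap as long as that median. The Myod1 gap is therefore not comparable with it. A muscle peak in the 3′UTR with a C2C12 peak in the 5′UTR, a pair counted after it was seen in Myod1, was found in 14 of the 775 genes (1.81%). That is 3.84% of the 365 genes whose muscle peak was in the 3′UTR. Of all C2C12 peaks, 6.29% were in the 5′UTR, but these include genes with more peaks or without a muscle peak. The C2C12 5′UTR share among the 775 genes alone is not given, so whether this pair is unusual was not tested. Only peaks called different between the genotypes are in the muscle table, and the C2C12 list gives no such comparison. A muscle peak elsewhere in Myod1 that did not differ would therefore not be listed. Samples and genome build also differ between the lists along with the cell source, and peak calling may differ too. The parts of all these in the Myod1 difference cannot be told apart.

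**Figure D2:**
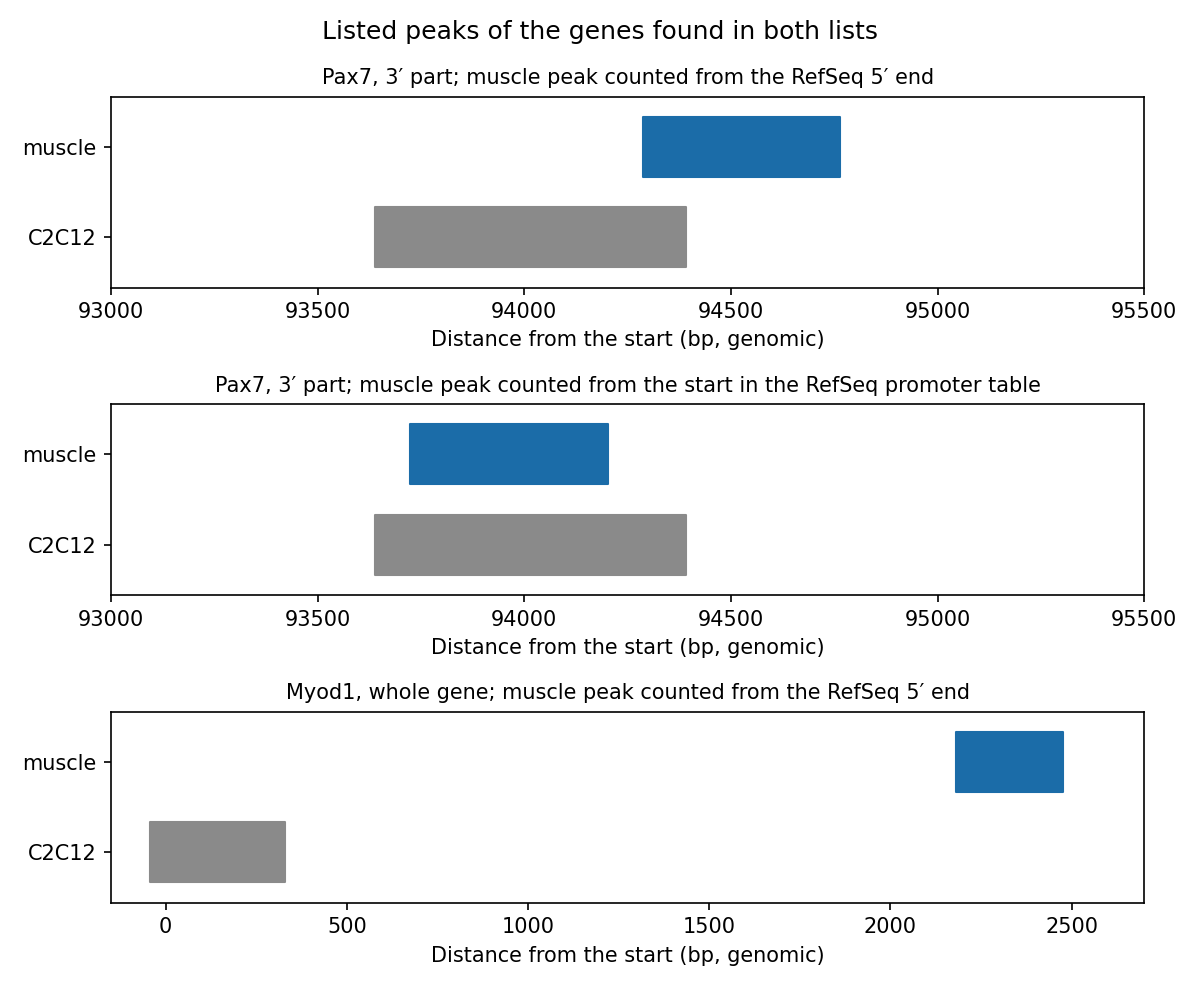
Extent of the listed peaks of Pax7 (upper and middle panels) and Myod1 (lower panel), as genomic distance in bp from the start (x axis), for muscle (blue) and C2C12 (grey). C2C12 distances are from the transcript start of the authors' annotation. The Pax7 peaks share 104.5 bp when muscle is counted from the RefSeq 5′ end and lie one inside the other when counted from the start in the promoter table, and the Myod1 peaks are 1851 bp apart.

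Myog, the factor of terminal differentiation, was listed in muscle alone and had its peak at the 5′ end. The peak lay at chr1:134290019-134290348 on the plus strand, was 330 bp long and was annotated to the CDS. It ran from 15 to 344 bp after the 5′ end of a gene of 2545 bp. Its fold enrichment was 6.82 with a p-value of 3.2e-17, and 32.7% of all muscle peaks and 25.0% of CDS peaks were lower. CDS peaks had a median fold enrichment of 26.65, so the Myog peak was in the lower part of its region. The table lists 4 GGAC sites in it, at 162, 212, 219 and 292 bp from the 5′ end, and the closest lay 17.5 bp from the peak centre.

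The Myog peak began inside the RefSeq promoter window, which covers 250 bases before and 50 bases after the start, so sequence at the start of the transcript can be shown. The 4 letters GGAC did not occur in those 50 bases, where they occur in 18.9% of the 32851 windows of all genes. A related form, GAAC, was found at chr1:134290035-134290038, inside the peak and 31 bp from the start. GAAC occurs in 14.6% of windows. The other related forms searched were AGAC, in 17.4% of windows, and AAAC, in 12.9%, and at least 1 of the 4 forms is found in 50.8%. All were read on the strand of the transcript. The 30 bases at chr1:134290022-134290051 on the plus strand (RefSeq, GRCm38.p6) are shown with GAAC in capitals.
Myog, start of the transcript: gggccagtggcagGAACaagccttttccga

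Before the start, the Myog window held 2 E-boxes, the letters CANNTG, which read the same on both strands. At least 1 E-box is found in 66.2% of windows and at least as many as in Myog in 31.8%, so the number is unremarkable. Both are shown because myogenic factors bind this motif, with 30 bases each from the plus strand and the E-box in capitals. They start 138 and 12 bases before the transcript start, and the runs are chr1:134289854-134289883 and chr1:134289974-134290003.
Myog, upstream E-box: gggaaggggaatCACATGtaatccactgga
Myog, E-box next to the start: ggtttaaatggcacccagCAGTTGgtgtga
The MEF2 consensus, searched on both strands, had no match in the 250 bases before the start of any listed window of Myog, Pax7, Myf5, Mef2a, Mef2c or Mef2d, and 2.92% of all windows hold one. A site that departs from the consensus would not be counted, so these promoters may still hold MEF2 sites. E-boxes numbered 0 in the windows of Pax7, Myf5, Mef2a and Mef2d, and 2, 0 and 1 in those of Mef2c. Promoter entries for Myod1, Pax3 and Myf6 were missing. Neither these letters nor their lack say anything about binding in these samples.

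Myf5 and Myf6 were in neither list. Of the 4 myogenic regulatory factors, Myod1 and Myog therefore had listed peaks in muscle and Myod1 alone in C2C12.

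All 3 MEF2 genes were listed in muscle, with low fold enrichment, and none in C2C12. Their 5 peaks had fold enrichments from 1.87 to 4.08, all below the median of 12.9. By p-value the order differed, and the lowest of the set were those of Mef2d and Mef2c. By strongest peak, Mef2d, Mef2c and Mef2a were at ranks 3250, 3303 and 3315 of 3803 genes. MEF2 proteins work with the myogenic regulatory factors during differentiation and are also expressed outside the muscle lineage.

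Mef2d had 2 peaks in its 3′UTR on the plus strand. The first, at chr3:88168885-88169244, was 360 bp long with a fold enrichment of 4.08, a p-value of 5.0e-31 and 4 GGAC sites. The other, at chr3:88169603-88169752, was 150 bp long with a fold enrichment of 2.83, a p-value of 6.3e-06 and 0 GGAC sites. The peaks lay at 90.0% and 92.0% of the gene, with centres 3026.5 and 2413.5 bp from its 3′ end.

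Mef2c had 1 peak, also in the 3′UTR, at chr13:83666690-83666930 on the plus strand. It was 241 bp long, with a fold enrichment of 3.82, a p-value of 1.6e-19 and 2 GGAC sites. Its centre was 269 bp from the 3′ end, at 99.8% of the gene, which is nearer to the end than in any other listed factor.

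Within the muscle table, Mef2a was the only factor with peaks at both ends of the gene, and neither held a GGAC site. The 3′UTR peak, at chr7:67232721-67232961 on the minus strand, was 241 bp long with a fold enrichment of 3.78 and a p-value of 5.0e-15, at 98.8% of the gene. The 5′UTR peak, at chr7:67372738-67372858, was 121 bp long with a fold enrichment of 1.87 and a p-value of 1.3e-06, the lowest fold enrichment of the set. It began 0 bp from the transcript start that the RefSeq promoter table gives for Mef2a, at its first base. Neither GGAC nor the related forms named above occur in the first 50 bases there.

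**Figure D3:**
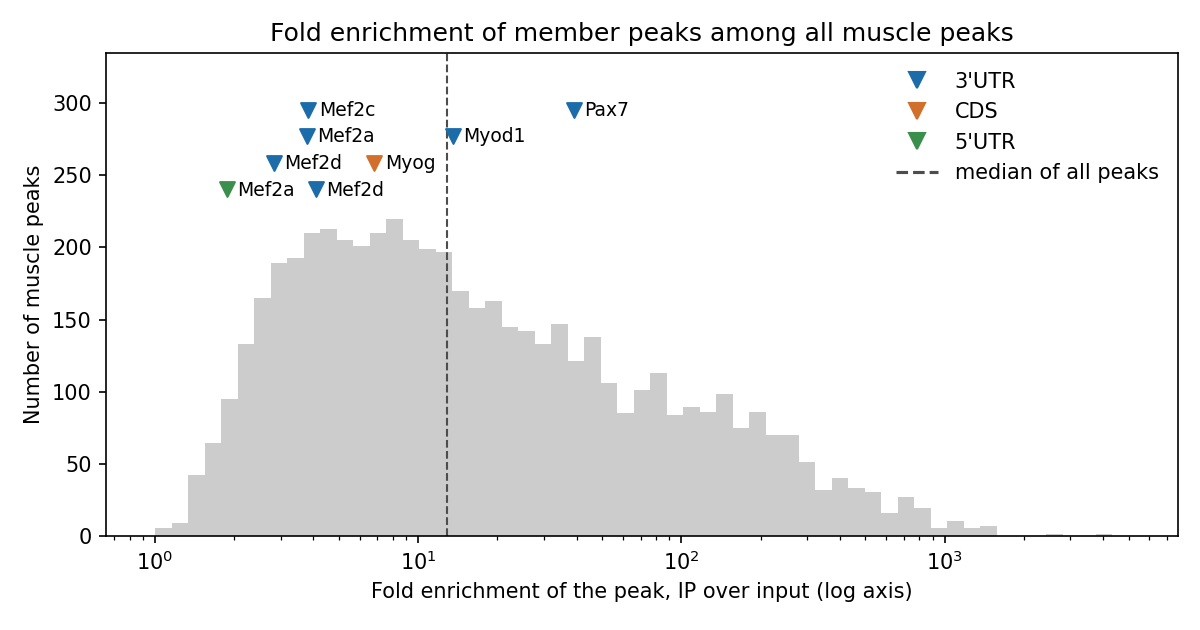
Number of muscle peaks (y axis) by fold enrichment of IP over input (x axis, log scale) for all 5412 muscle peaks (grey), with the 8 peaks of the factors as triangles coloured by region. The heights of the triangles carry no value. Pax7 (39) and Myod1 (13.5) lie at or above the median of 12.9 (dashed line), and the other 6 peaks lie below it.

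Across the set, enrichment was low while the density of GGAC was not. The median fold enrichment was 3.95 over the 8 peaks, against 12.9 over all muscle peaks. Over all 3′UTR peaks, the region of 6 of the 8, the median was 9.94. By the strongest peak of each gene it was 5.45 over the 6 genes, against 19.8 over all genes. Of the 8 peaks, 5 (62.5%) held GGAC, against 70.6% of all peaks. The 14 sites in 2218 bp amount to 6.31 per kb, against 4.63 per kb over all peaks. Of these sites, 8 lay within 100 bp of the peak centre, and distances from the centre ran from 17.5 to 165.5 bp. Other RefSeq gene spans over these peaks numbered 0, so no peak could be assigned to a neighbour.

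Partners of these factors were found in both lists. Of 80 genes in 4 lists, 22 (27.5%) had a peak in muscle, 31 (38.8%) in C2C12 and 13 in both, beside 16.9% and 17.6% of all protein-coding genes in muscle and C2C12. Whether these shares differ from those of the 9 factors was not tested. Of the 16 dimer partners and inhibitors of the myogenic helix-loop-helix factors, 6 were listed in muscle and 8 in C2C12. Id1, Id3, Bhlhe40 and Bhlhe41 were in both, and the peaks of each overlapped by distance from the start. Id proteins hold E proteins in dimers that do not bind DNA. The strongest peak of Id1, in the 5′UTR, had a fold enrichment of 38.1, while the Id1 peak that overlapped with C2C12 was the weaker one in the 3′UTR (12.9). The Id3 peak had 9.42. The strongest peaks of the repressors Bhlhe40 and Bhlhe41 had 84.2 and 138, both in the CDS. That of Bhlhe41 is also listed for Gm43909. The E protein genes Tcf4 and Tcf12 were listed in muscle alone, at 18.9 and 19.6, each in the 3′UTR, and Tcf3, Id2, Hes1 and Heyl in C2C12 alone. The median over the strongest peaks of the 6 genes was 28.85.

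Coactivators, repressors and kinases of MyoD and MEF2 had the most listed genes, 12 of 20 in muscle, 10 in C2C12 and 8 in both, where all protein-coding genes had 16.9%, 17.6% and 7.32%. The muscle count and the count in both include Smarcd3, whose peak is uncertain. The acetyltransferase genes Crebbp and Ep300 had CDS peaks with fold enrichments of 604 and 308, higher than 98.4% and 95.5% of muscle peaks. The methyltransferase gene Kmt2d had 261, with 6 muscle and 7 C2C12 peaks. For Crebbp, Ep300 and Kmt2d the enrichment was far above that of the 6 factors with a muscle peak. The peak listed for Smarcd3, a chromatin remodelling subunit that works with MyoD, had 571, but it lies 98 bp past the 3′ end of the RefSeq gene and over Chpf2, so its gene is uncertain. Carm1 had 43.8, in a peak that also touches the span of Yipf2, and Mapk14, the p38 kinase gene, had 26.5, and the peaks of Crebbp, Ep300, Kmt2d, Carm1 and Mapk14 overlapped between the lists. Those of Smarcd3, Mapk7 (26.7) and Ncoa2 (24.6) did not overlap. Of the genes in muscle alone, the strongest were Mamstr (73.9), a MEF2 coactivator, Hdac4 (29.7), a MEF2 repressor, and Kat2b (10.3). Cabin1 and Prmt5 were in C2C12 alone. The median over the strongest peaks of the 12 muscle genes was 36.75.

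Of the 22 homeobox and related upstream factors, 3 were listed in muscle, 8 in C2C12 and 0 in both. In muscle, Pitx1 and Tead1 had strongest peaks with fold enrichments of 37.2 and 5.84, both in the 3′UTR. In C2C12, Six4 had 2 peaks, both in coding exons. Of the 22 differentiation and fusion genes that the factors switch on, 1 was listed in muscle and 5 in C2C12. Des, the intermediate filament gene, was in both, and its muscle peak at the start codon had a fold enrichment of 2.12. Mymx, Chrna1, Cdkn1a and Cdh15 were in C2C12 alone, and the only peaks of Chrna1 and Cdkn1a lay in introns. With exon and UTR peaks alone, the partner genes of all lists in C2C12 went from 31 to 29. The share of these differentiation genes in C2C12 given next includes Chrna1 and Cdkn1a, and that of all genes also counts intron peaks. These differentiation genes made up 4.55% of their list in muscle and 22.7% in C2C12, beside 16.9% and 17.6% of all protein-coding genes, and the difference was not tested.

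Muscle, which the labels give as the source of the RNA, holds several cell types, and markers of these were listed as well. The labels also give muscle stem cell as the cell type, so which cells the RNA came from is not settled. The counts below stand beside the shares of all protein-coding genes given above, 16.9% in muscle and 17.6% in C2C12. Of 10 satellite cell markers, 5 were in the muscle table, Pax7 among them, and Myf5 was not. Of 8 myofibre markers 1 was listed (Ttn, with 27 peaks), of 7 macrophage markers 3, of 4 neutrophil markers 1, of 5 fibro-adipogenic progenitor markers 2 and of 4 endothelial markers 1. In C2C12, 3 satellite cell and 3 fibro-adipogenic progenitor markers were listed, and 0 of the myofibre, macrophage, neutrophil and endothelial markers. The 3 satellite cell markers were Pax7, Spry1 and Cdh15, and Cdh15 was also counted among the differentiation genes above. The tables hold no expression levels, so the abundance of these cell types could not be read from them, and fewer cells of a type cannot be told apart from less m6A per cell. Their part in the peaks of MEF2 genes, which other cell types also express, was not tested.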

How the data were processed

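The muscle table was made from 4 libraries and the C2C12 list from 3. The submitters' processing notes name TopHat, MACS2 and mm10, without roles. For each muscle peak, the authors deposited a p-value, listed as 0 for 929 peaks, and a fold enrichment, the ratio of IP over input. Further columns hold the authors' comparison of the genotypes (log2 fold, p and FDR) and were not used, except to check that every muscle peak passes an FDR of 0.05. The C2C12 list gives positions, regions and distances to the transcript start. Columns of single samples left out numbered 0.

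Genes were matched to RefSeq (GRCm38.p6), older symbols included, 3808 of 3980 for muscle and 3967 of 3970 for C2C12. Of 5214 matched muscle peaks, 98.5% touch the GRCm38 span of their gene, but 9.61% of 5327 C2C12 peaks do. The C2C12 coordinates are thus on another build, which is not named, and are not printed. The lists were compared by distance from the start, which the C2C12 list counts from the peak centre in 1021 of 1021 transcripts with more than 1 peak (tolerance 1 bp). Listed GGAC positions were checked against the promoter windows, and in 99 of 114 (86.8%) GGAC starts 1 base before the listed position. The code that finds overlapping peaks was checked on simulated data, which is no test of the overlap shares given above. Python 3.11.15, pandas 2.3.3, numpy 2.4.6 and matplotlib 3.10.9 were used.

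All 9 factors are named, and of the partner lists the genes in both tables, and of those in 1 table the 3 with the highest fold enrichment or most peaks. Genes tied in number of peaks are all named. Some genes that this rule selects are not reported here. The members and lists were chosen with earlier results of these data known. The E-box, MEF2 and GGAC-related motifs were chosen after the peaks had been seen.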

Additional observations from a re-analysis of the deposited data

How the results depend on the processing

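When only peaks not below the median of all muscle peaks counted, the factors listed in muscle went from 6 to 2 and their 3′UTR peaks from 6 to 2, since the other peaks are below it by construction. The 3′UTR count under this filter was added after seeing the data. Ranking by covered length in place of number of peaks put Pax7 above 85.8% and Myod1 above 54.6% of C2C12 genes, where both have the lowest number, 1 peak. The other 36 values moved by under 1.5 times or 10 percentage points. These covered current symbols, regions, peak ends, the representative peak, the 200 bp at the centre (5.44 GGAC per kb in place of 6.31) and the partners not below the median (17 in place of 22). Added after seeing the data were C2C12 peak ends and the transcript start of the promoter table. That start gave overlapping peaks in 62.0% of the 1005 genes with 1 promoter window, where the RefSeq 5′ end gave 57.1% of the same genes and 54.7% of all 1584. Regions on RefSeq transcripts and the longest spliced transcript were not run, since exons were not used here. For C2C12 the distance over gene length, planned as the alternative, became the main measure. No paired analysis was possible because no result comes from a test, and leaving out a replicate gives no value, since the tables hold none per library. Depth is unknown.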
